A study of Mus musculus with 14 samples.

Results

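The genes of box C/D small nucleolar RNAs (snoRNAs) were followed in heads of mouse embryos labelled as Zcchc8 knockouts and in heterozygous and wild-type heads. The members were the loci of the deposited tables with at least 1 gene name that begins with Snord, and with no name of a box H/ACA snoRNA, a Cajal body RNA, an Snhg host gene, Gas5 or Zfas1. Of 67811 loci, 75 met this rule, and 10 more with a Snord name were left out because such a name stood in the same locus. A snoRNA name stood alone at 50 of the members (49 distinct names, since 2 loci were both called Snord13), and 25 members shared their locus with other names. Both kinds are described apart, because the value of a shared locus also holds the RNA of its host gene. Counts given for the tested members as a whole pool both kinds. Polyadenylated RNA was sequenced from whole heads, brain included, at E12.5 (embryonic day), in 6 libraries of Zcchc8-/- heads (KO), 3 of Zcchc8+/- heads (HET) and 5 of Zcchc8+/+ heads (WT). All were on the C57BL/6J strain. The labels do not say how the allele was made, nor whether each library came from its own embryo, so what the p-values measure may be no more than the spread of these samples.

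Box C/D snoRNAs pair with ribosomal RNA and guide the methylation of its riboses, while a few members serve in the cutting of the ribosomal RNA precursor. Each is named for its short boxes C and D, which are bound by the core proteins fibrillarin, Nop56, Nop58 and Snu13. In mammals most are cut out of introns of genes for ribosomal proteins and other growth-related proteins, after splicing, and a few have promoters of their own. Zcchc8 is part of the nuclear exosome targeting complex, which delivers short nuclear transcripts to the RNA exosome for trimming or decay. Mature snoRNAs carry no poly(A) tail, so libraries made from polyadenylated RNA hold tailed or extended forms and host transcripts rather than the mature pool.

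The sequences of 5 members on which the results turn are given 5′ to 3′ on the strand of the gene, from the GENCODE M21 transcripts of build GRCm38 (mm10). Capitals mark the first TGATGA, the core of box C, and the last CTGA after it, box D; Snord93 holds no such pair.
Snord17: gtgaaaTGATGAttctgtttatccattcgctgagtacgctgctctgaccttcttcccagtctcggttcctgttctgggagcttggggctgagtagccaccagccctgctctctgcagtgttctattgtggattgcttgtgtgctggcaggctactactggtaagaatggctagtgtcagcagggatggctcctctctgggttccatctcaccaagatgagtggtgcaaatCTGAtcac
Snord118: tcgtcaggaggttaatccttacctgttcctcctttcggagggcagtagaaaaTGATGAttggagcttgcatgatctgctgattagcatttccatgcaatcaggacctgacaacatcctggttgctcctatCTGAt
Snord104: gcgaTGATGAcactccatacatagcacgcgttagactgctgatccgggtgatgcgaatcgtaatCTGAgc
Snord93: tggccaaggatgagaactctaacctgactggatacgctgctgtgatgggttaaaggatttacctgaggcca
Snord116l17: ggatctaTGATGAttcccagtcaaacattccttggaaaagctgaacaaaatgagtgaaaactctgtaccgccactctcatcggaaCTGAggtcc

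Snord17 (chr2:144265979-144266216, minus strand) lies in an intron of Snx5. Snord93 (chr5:23852210-23852280, plus strand) lies in an intron of the non-coding gene 2700038G22Rik. For Snord118 (chr11:69073427-69073561, plus strand), Snord104 (chr11:106500993-106501062, plus strand) and Snord13 on chromosome 8, GENCODE has no host gene on the same strand. Snord116l17 (chr7:59861731-59861824, minus strand) stands for the Snord116 cluster inside Snhg14, where 14 of 17 member copies have exactly this sequence. TGATGA followed by CTGA on the sense strand was found in 41 of the 49 sequences matched to loci with a snoRNA name alone and in 20 of the 32 snoRNAs of the shared loci. Over all GENCODE genes, 75.5% of the 98 Snord genes and 0% of the 42 Snora genes held this pair. It was found in 0.33% of 32851 RefSeq promoter windows of 84 bases, the median length of a Snord gene.

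Zcchc8 RNA (chromosome 5, 123698294 to 123721100) was 15.5 ± 3.91 FPKM in KO (SD, n = 6), 25.7 ± 1.65 FPKM in HET (SD, n = 3) and 39.7 ± 2.32 FPKM in WT libraries (SD, n = 5), in fragments per kilobase of transcript, scaled to the total of fragments. The KO mean was 39.1% of the WT mean, and the limma-trend adjusted p of KO against WT was 2.11e-06. In HET heads the mean was 64.8% of that of WT, with a limma-trend adjusted p of 1 and a two-sided exact permutation p of 0.0179 on this gene alone. Total depth is unknown. Relative depth, with WT1 as the unit, was 1.149 to 1.495 in KO, 1.231 to 1.32 in HET and 1 to 1.197 in WT libraries. Over the whole table, loci at 0.1 FPKM or more numbered 22666 to 25272 in KO, 19927 to 20642 in HET and 20109 to 20543 in WT libraries. Loci listed at 0 numbered 35144 to 39501 in KO, 40094 to 40470 in HET and 40189 to 40909 in WT libraries. Summed FPKM of 8 neural markers was 454 to 612 in KO, 499 to 534 in HET and 480 to 557 in WT libraries, and all 8 were above 0 in every library. Sums of 5 erythroid, 4 muscle, 3 lens, 3 cartilage, 2 endothelial and 3 microglia and mast cell markers overlapped between KO and WT libraries. The sum of 3 epithelial keratins did not overlap, with 34.7 to 50.4 FPKM in KO, 69.6 to 71.4 FPKM in HET and 59.3 to 90.0 FPKM in WT libraries, and its part in the results on the snoRNA loci was not tested. In these whole heads, fewer cells of a type and less RNA per cell cannot be told apart.

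Nearly all loci that carry a snoRNA name alone were listed at 0. That held for 46 of the 50 in all 14 libraries, among them all 17 Snord116 copies, the snoRNAs of the Prader-Willi region that neurons express. Of the 50854 other loci with a single name, 37.9% were listed at 0 in every library. The 50 loci were also short and mostly intronic. GENCODE lists 49 of them as snoRNA genes (Snord43 is listed as a microRNA) of 64 to 148 bases, with a median of 94. Of these 49, 45 lie in an intron of a same-strand gene, 1 (Snord66, within Eif4g1) overlaps an exon, and 3 (Snord118 and both loci called Snord13) have no host. Their 24 hosts include 8 ribosomal protein genes. Without the Snord116 copies, the median distance from the snoRNA to the next host exon was 86.5 bases (quartiles 70.75 and 121, n = 28).

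Listing above 0 went with length when small RNA genes of several kinds were pooled. Kinds other than box C/D were not examined apart. Among loci whose single name is that of 1 small RNA gene, 7 of 1554 under 100 bases were above 0 in any library, or 0.5%. The share was 3.1% of 1926 at 100 bases up to 130, 12.2% of 624 at 130 bases up to 150 and 23.1% of 631 at 150 bases or more. The box C/D loci among them numbered 0 of 42 above 0 in the shortest class, 1 of 4 in the next (Snord23) and 2 of 2 from 130 bases (Snord118 with 135 and Snord15a with 148 bases). Snord13, whose name stands on 2 loci, was left out of this count. A listed 0 at a short snoRNA therefore stands beside a listed 0 at nearly all of these small RNA loci of that length. It is no measure of the snoRNA's amount.

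**Figure D1:**
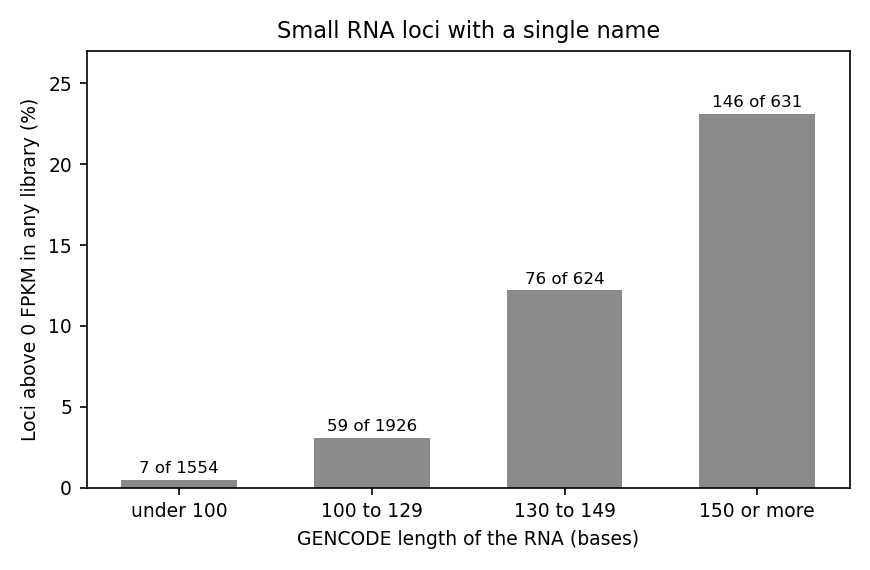
Share of loci with a single small RNA name that were above 0 FPKM in any of the 14 libraries (vertical axis, percent), by the GENCODE length of the RNA (horizontal axis, bases). The numbers above the bars give the loci above 0 out of all, and the share is 0.5% under 100 bases and 23.1% from 150 bases.

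Of the 50 loci with a snoRNA name alone, 2 passed the filter of 0.5 FPKM in at least 3 libraries, Snord118 and Snord15a. Just inside it, the third highest library had 1.33 FPKM for Snord15a, 6.67 FPKM for Snord118 and 7.24 FPKM for the Snord93 locus. Just outside it stood 1 of the loci called Snord13, with 0.418 FPKM, and the Snord104 locus, with 0.322 FPKM, ahead of loci at 0. Snord118, known as U8, is needed to process the precursor of the large-subunit ribosomal RNAs. It had 6.67, 7.13, 12.2 and 2.78 FPKM in KO3, KO4, KO5 and KO6, and was listed at 0 in KO1, KO2, all 3 HET and all 5 WT libraries. Values above 0 were thus seen in 4 of 6 KO libraries. The limma-trend adjusted p of KO against WT was 0.0242. Snord118 passed the filter through KO libraries alone, so a difference was built into its being tested, and against groups listed at 0 no fold is given. The call was lost without KO3, KO4, KO6, WT2, WT3 or WT4 (limma-trend adjusted p between 0.0502 and 0.0567 over these), and against HET the limma-trend adjusted p was 0.0561. Relative depth and the number of loci listed at 0 also differed between these libraries, and their part in the Snord118 values was not tested. KO1 and KO2, at relative depths of 1.149 and 1.181, lay within the WT range, and the other 4 KO libraries lay above it. The HET libraries, at 1.231 to 1.32, were listed at 0 while KO3, at 1.266, was not.

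Snord13, known as U13, serves in the maturation of small-subunit ribosomal RNA. The locus of that name with values above 0 (XLOC_058352, whose range is longer than the annotated snoRNA) had a lowest, median and highest value of 0.0861, 0.416 and 0.568 FPKM in KO libraries. It had 0, 0.0790 and 0 FPKM in the 3 HET libraries, and 0.147, 0, 0, 0 and 0 FPKM in the 5 WT libraries. All 6 KO libraries were above 0, and KO1 lay below WT1, so the groups overlapped. The second locus called Snord13 was listed at 0 throughout. In a fit with no filter on low values, over 47204 loci, the difference of KO from WT was 1.83 on the log2(FPKM + 0.1) scale (SE 0.36, limma-trend adjusted p = 0.00313), and that of KO from HET was 1.81 (SE 0.42, limma-trend adjusted p = 0.0121). In that fit KO against WT gave 9.97% of loci higher and 1.53% lower, and KO against HET gave 8.79% higher and 1.23% lower. Of the 29 members in it, 5 were higher in KO against WT and 6 in KO against HET, and 0 were lower. The difference of the members from the shares of all loci was not tested. The Snord13 levels are far below the filter, and the sizes depend on the pseudocount. Each KO library also had more loci at 0.1 FPKM or more over the whole table than any HET or WT library. The part of this in the values of Snord13 and of the Snord104 locus was not tested.

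Snord104, a guide for ribosomal RNA methylation, stood in a locus shared with the predicted snoRNA gene Gm22711 and was the single shared locus under the filter. It had 0.0481, 0.273 and 0.675 FPKM as lowest, median and highest value in KO libraries. In HET libraries it had 0.0271, 0 and 0.00760 FPKM, and in WT libraries 0, 0.0347, 0.0245, 0.0169 and 0.00893 FPKM. Every KO library lay above every HET and WT library. In the fit with no filter the difference of KO from WT was 1.69 on the log2(FPKM + 0.1) scale (SE 0.39, limma-trend adjusted p = 0.00948). That of KO from HET was 1.76 (SE 0.45, limma-trend adjusted p = 0.0228). The shares of all loci called in that fit are those given with Snord13. Most levels of the Snord104 locus are also far below the filter, and the sizes depend on the pseudocount.

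Snord15a, a guide for ribosomal RNA methylation, and Snord23 showed single libraries rather than groups. Snord15a, in an intron of Rps3, had 3.14 FPKM in KO3, 1.33 FPKM in KO6 and 4.55 FPKM in WT5 and was listed at 0 elsewhere. Its difference of KO from WT was 0.37 on the log2(FPKM + 0.1) scale (SE 1.18, limma-trend adjusted p = 0.867). Snord23 had 367 FPKM in WT1 and was listed at 0 in the other 13 libraries. For so short a gene, 1 library's value gives no level for its group.

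The shared loci mostly lie over exons of their host genes. They name 32 snoRNAs of 66 to 238 bases (median 84), of which GENCODE puts 24 over an exon of a same-strand transcript, 7 in introns and 1 (Snord104) outside any host. By comparison, 1 of the 49 matched snoRNAs with a locus of their own overlaps an exon. The other names in these loci comprise 22 coding genes, 14 further snoRNAs, 1 microRNA and 10 names not matched to GENCODE. Of the 25 shared loci, 24 passed the filter, with means over all libraries between 6.16 and 1609 FPKM.

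In KO against WT heads, 3 of the 24 tested shared loci were higher and 1 was lower by limma-trend at an adjusted p under 0.05, and the median difference was 0.012 on the log2 scale. Over all 18217 tested loci, 19% were higher and 5.61% were lower, with a median of -0.002. Those calls were 3463 higher and 1022 lower, a split that quantile normalization turned to 2338 higher and 3801 lower and the authors' matrix to 6969 higher and 269 lower, while the Snord17 and Snord93 loci were higher under both. With Snord118, 4 of the 26 tested members (15.4%) were higher and 1 (3.8%) was lower. Snord118 passed the filter through KO libraries alone, so its higher call was built in and this pooled share is not set against the background. Among the 24 shared loci alone, the shares called higher and lower were both below those of all tested loci, a difference that was not tested. The groups did not overlap, KO above WT, at 2 of the shared loci and at 15.3% of all tested loci, and KO below WT at 0 of the shared loci and at 1.99% of all. Of the members, 26 of 75 could be tested, so the counts say nothing of the others.

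The Snord17 locus rose the most among them. Snord17 is among the longest box C/D snoRNAs, with 238 bases, and shares its locus (chromosome 2, 144250123 to 144281227) with its host Snx5, a sorting nexin of endosomes, and with Gm26165 and a clone-named transcript. The locus had a lowest, median and highest value of 114, 149 and 204 FPKM in KO libraries. It had 69.1, 66.9 and 71.9 FPKM in HET libraries and 75.4, 69.6, 68.6, 70.9 and 85.3 FPKM in WT libraries. All KO libraries lay above all others. The means were 153.8 ± 30.3 FPKM in KO (SD, n = 6), 69.3 ± 2.47 FPKM in HET (SD, n = 3) and 74.0 ± 6.85 FPKM in WT (SD, n = 5), a KO to WT ratio of 2.08. The difference of KO from WT was 1.04 on the log2 scale (SE 0.11, limma-trend adjusted p = 2.15e-06) and that of KO from HET 1.13 (SE 0.13, limma-trend adjusted p = 5.91e-06). Which of the 4 names carries the added fragments cannot be told from a single value per locus.

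The Snord93 locus, shared with a clone-named transcript (chromosome 5, 23850552 to 23863343), was also higher in KO than in WT heads. It had a lowest, median and highest value of 5.52, 6.97 and 10.7 FPKM in KO libraries, 5.52, 4.20 and 4.73 FPKM in HET libraries and 5.67, 4.61, 6.48, 5.32 and 4.65 FPKM in WT libraries. KO and WT libraries overlapped. The difference from WT was 0.46 on the log2 scale (SE 0.14, limma-trend adjusted p = 0.0286), and that from HET was 0.61 (SE 0.17, limma-trend adjusted p = 0.0156). The call against WT was lost without KO5, WT2, WT4 or WT5 (limma-trend adjusted p between 0.0541 and 0.0765 over these).

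The single fall was at the locus of Snord89, Rnf149 and AC074336.1 (chromosome 1, 39547570 to 39577405), where Rnf149 encodes a ubiquitin ligase of the RING type and Snord89 lies in an intron of Gm15832. It had a lowest, median and highest value of 13.5, 14.7 and 16.3 FPKM in KO libraries. HET libraries had 15.3, 14.6 and 15.9 FPKM and WT libraries 17.3, 18.2, 16.1, 16.7 and 15.7 FPKM, and KO and WT overlapped. It fell by 0.17 on the log2 scale (SE 0.06, limma-trend adjusted p = 0.044), a call lost under 16 of 25 other settings and turned round under the authors' matrix of log2 values (0.07).

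**Figure D2:**
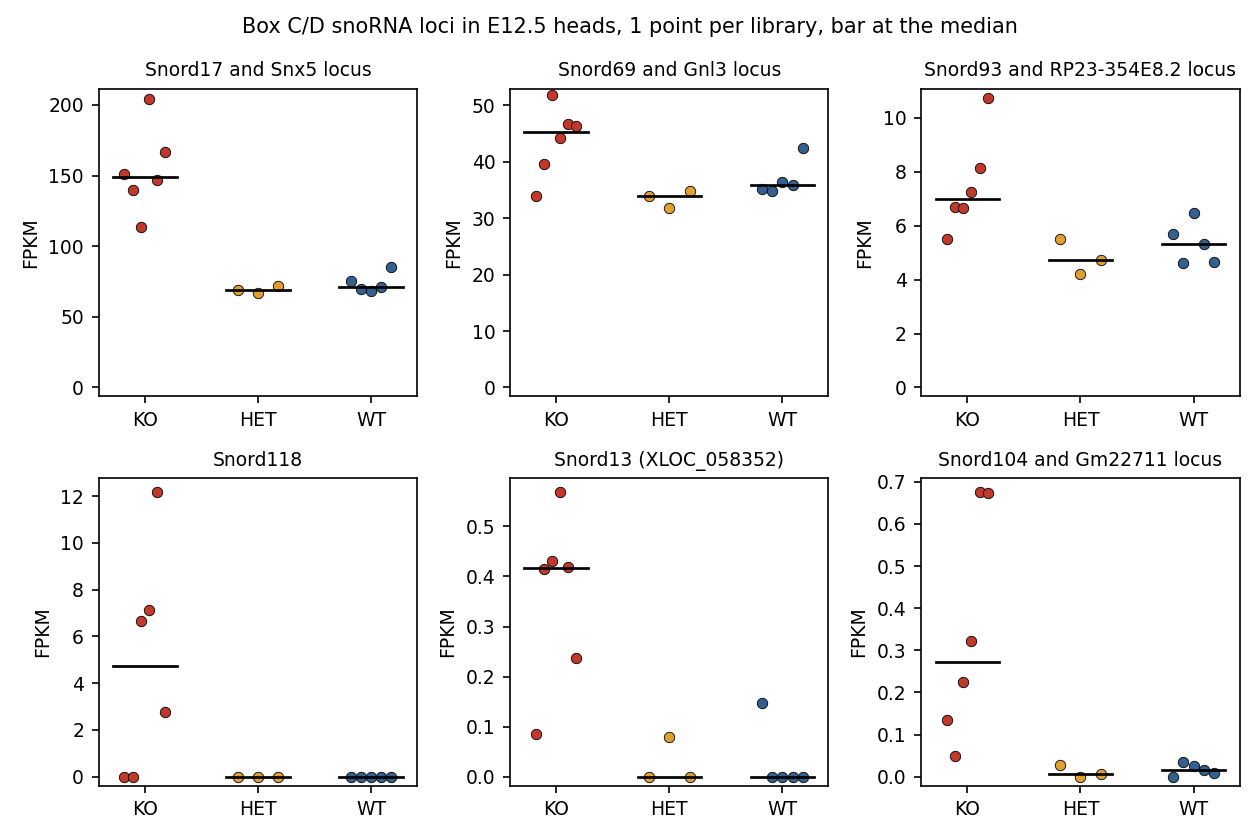
FPKM (vertical axes, linear) of 6 box C/D snoRNA loci in KO, HET and WT libraries (horizontal axes), with 1 point per library and a bar at the group median. All 6 KO points of the Snord17 and Snx5 locus lie at 114 FPKM or more and all other points at 85.3 FPKM or less, while 4 KO points of Snord118 are above 0 and all HET and WT points are at 0.

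The 9 loci that a snoRNA shares with a ribosomal protein gene had means of 712 to 1616 FPKM in KO heads and 691 to 1593 FPKM in WT heads. Their differences lay between -0.05 and 0.05 on the log2 scale with SEs of 0.04 to 0.07, 0 of 9 were higher or lower by limma-trend, and 0 of 9 had an unadjusted p under 0.05 (smallest limma-trend adjusted p 0.513). Over all 18217 tested loci, 24.6% were called in either direction, and 4119 were higher and 2157 lower at an unadjusted p under 0.05. The locus of Rpl13a and Snord33 averaged 1616 ± 147 FPKM in KO (SD, n = 6), 1622 ± 101 FPKM in HET (SD, n = 3) and 1593 ± 141 FPKM in WT (SD, n = 5). Rpl23a with Snord42b averaged 1579 ± 108 FPKM in KO (SD, n = 6), 1497 ± 41.0 FPKM in HET (SD, n = 3) and 1565 ± 102 FPKM in WT (SD, n = 5). Hspa8, a heat shock cognate chaperone whose locus holds Snord14c, Snord14d and Snord14e, averaged 1342 ± 176 FPKM in KO (SD, n = 6), 1329 ± 62.5 FPKM in HET (SD, n = 3) and 1374 ± 72.1 FPKM in WT (SD, n = 5). These 3 loci have the highest means of the members.

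Among the remaining shared loci, differences of KO from WT on the log2 scale ranged from -0.16 for Nop56 with Snord57 to 0.23 for Gnl3 with Snord69. Gnl3 encodes nucleostemin, a nucleolar GTP-binding protein. Its locus had a lowest, median and highest value of 33.9, 45.2 and 51.9 FPKM in KO libraries, 33.9, 31.7 and 34.7 FPKM in HET libraries and 35.2, 34.8, 36.4, 35.9 and 42.5 FPKM in WT libraries. KO libraries were spread widely and overlapped both other groups. The limma-trend adjusted p was 0.0776 against WT. Sf3b3, a splicing factor subunit whose locus holds Snord111, had a difference of 0.14 (SE 0.05, limma-trend adjusted p = 0.0727). Ckap5, a microtubule polymerase gene with Snord67, had 0.13 (SE 0.08, limma-trend adjusted p = 0.279). The non-coding locus of Snord1a, Snord1b and Snord1c had 0.06, and Tsr1, a ribosome assembly factor gene with Snord91a, had 0.00.

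**Figure D3:**
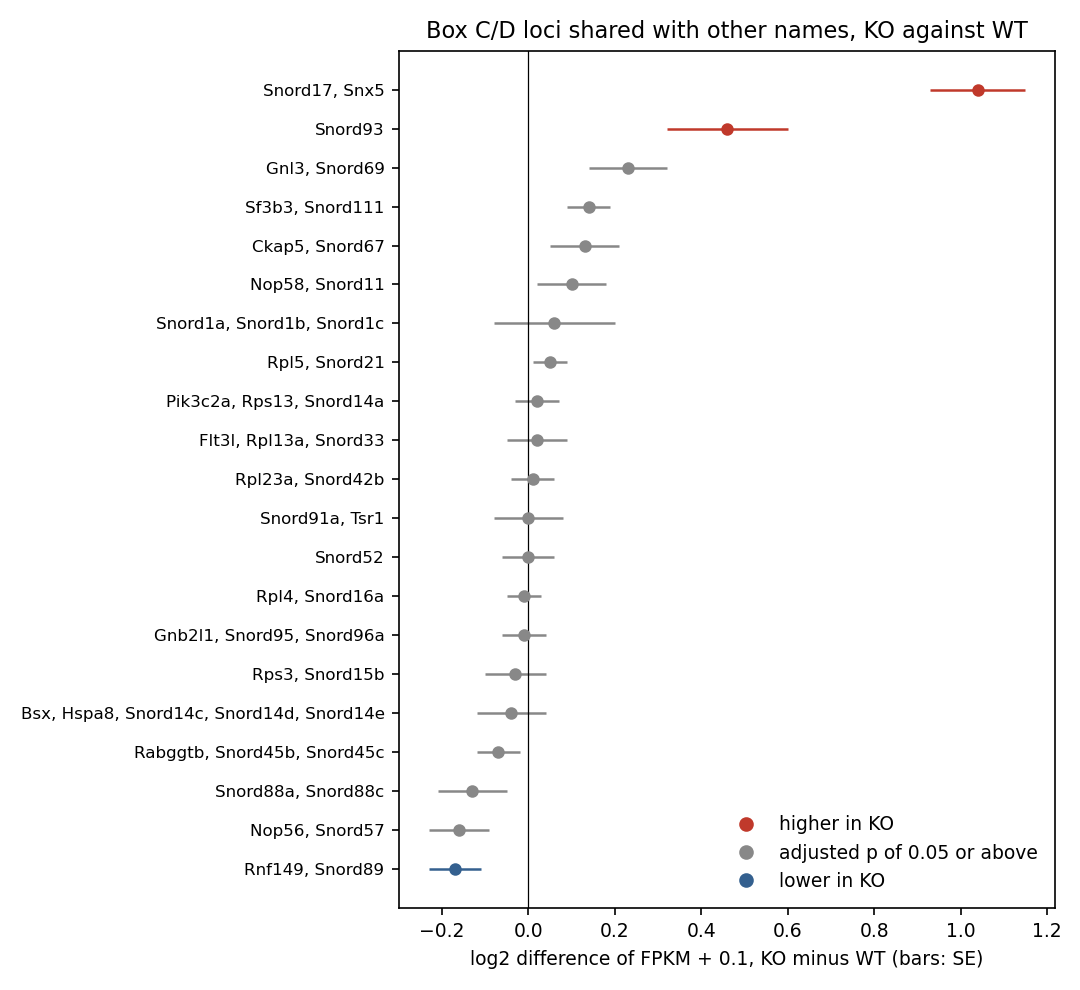
Difference of KO from WT heads in log2(FPKM + 0.1) (horizontal axis) for 21 of the 24 tested loci that a box C/D snoRNA shares with other names (vertical axis), with bars for the SE and colours for the limma-trend call. The Snord17 and Snx5 locus stands at 1.04, and the other 20 lie between -0.17 and 0.46.

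The HET and KO groups were also set against each other and HET against WT. In HET against WT, 0 of 26 tested members were higher or lower by limma-trend at an adjusted p under 0.05, and 0 had an unadjusted p under 0.05. Over all tested loci the limma-trend calls numbered 0.00549% higher and 0% lower, with 154 higher and 200 lower at an unadjusted p under 0.05. The median difference of the members was -0.023 on the log2 scale and the Snord17 locus had -0.09. In KO against HET, 4 of the 26 tested members were higher and 0 were lower by limma-trend, with 5 and 1 at an unadjusted p under 0.05. Over all 18217 tested loci 17.9% were higher and 4.36% were lower by limma-trend, with 3956 and 1796 at an unadjusted p under 0.05. The limma-trend calls were 3265 higher and 794 lower. With quantile normalization they were 2092 higher and 3256 lower, and with the authors' matrix 4619 higher and 217 lower. Of the 26 members, 2 were higher without HET4. All 4 were among the 24 tested shared loci, and 0 were among the 2 tested loci with a snoRNA name alone. The 4 included the loci of Snord17, Snord93 and Snord69. At the Gnl3 and Snord69 locus the difference was 0.37 on the log2 scale (SE 0.11, limma-trend adjusted p = 0.0181), and it was the single member locus where all HET libraries lay below all WT libraries, as did 1.43% of all tested loci (1.05% lay above). KO lay above HET without overlap at 3 members and at 17.7% of all tested loci, and below at 0 members and 5.19% of all. KO against WT and KO against HET share the KO libraries, so the second comparison is no independent repeat of the first.

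Coding genes beside the snoRNAs were examined after the snoRNA values had been seen. Tmem107, a gene for a protein of the base of the cilium, ends 133 bases before Snord118 on the same strand. It averaged 16.8 ± 1.07 FPKM in KO (SD, n = 6), 12.4 ± 1.19 FPKM in HET (SD, n = 3) and 11.9 ± 0.773 FPKM in WT (SD, n = 5). All KO libraries (15.1 to 18.2 FPKM) lay above all others, and the difference from WT was 0.50 on the log2 scale (SE 0.06, limma-trend adjusted p = 1.36e-05). Tex2 ends 1084 bases from Snord104 and runs toward it on the opposite strand. It averaged 12.8 ± 1.46 FPKM in KO (SD, n = 6), 7.54 ± 0.250 FPKM in HET (SD, n = 3) and 7.39 ± 0.419 FPKM in WT (SD, n = 5). The groups stood apart, with a difference of 0.78 on the log2 scale (SE 0.08, limma-trend adjusted p = 7.11e-07). The sources used here do not give the strand setting of the counting, so fragments of the Snord104 locus and of Tex2 cannot be told apart with certainty.

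The genes beside Snord13 and Snx5 had smaller differences. Tti2, which starts 347 bases from Snord13 on the opposite strand, averaged 7.76 ± 0.284 FPKM in KO (SD, n = 6), 7.56 ± 0.214 FPKM in HET (SD, n = 3) and 7.37 ± 0.443 FPKM in WT (SD, n = 5). Its difference of KO from WT was 0.07 on the log2 scale (SE 0.05, limma-trend adjusted p = 0.351). Mgme1, a mitochondrial nuclease gene on the opposite strand from Snx5, had a difference of 0.14 (SE 0.06, limma-trend adjusted p = 0.127).

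**Figure D4:**
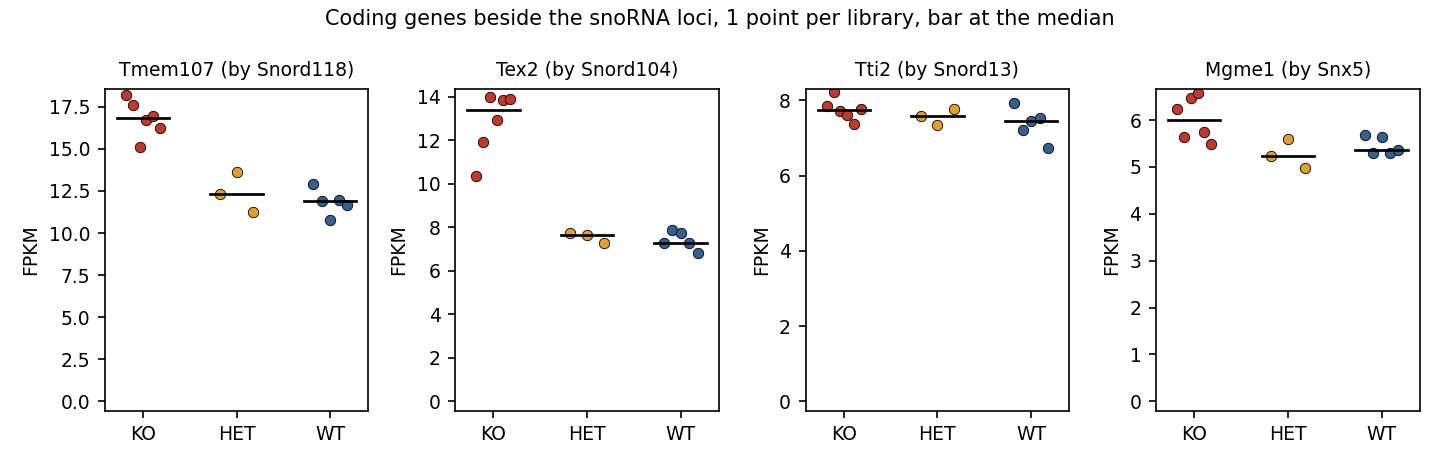
FPKM (vertical axes, linear) of the coding genes beside Snord118, Snord104, Snord13 and Snx5 in KO, HET and WT libraries (horizontal axes), with 1 point per library and a bar at the group median. KO points of Tmem107 (15.1 to 18.2 FPKM) and Tex2 (10.3 to 13.99 FPKM) lie above all HET and WT points, while those of Tti2 and Mgme1 overlap them.

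Host genes of the snoRNAs with a locus of their own could be read where they were separate loci. Of 15 such host loci, 0 were higher or lower in KO against WT by limma-trend and 0 had an unadjusted p under 0.05, with differences from -0.07 to 0.12 on the log2 scale. Among all 18217 tested loci, 24.6% were called in either direction. At an unadjusted p under 0.05, 4119 of these were higher and 2157 lower. Snhg14, the long non-coding host of the Snord116 copies, shares its locus with Snrpn and Snurf. That locus averaged 137.9 ± 24.6 FPKM in KO (SD, n = 6), 144.7 ± 16.0 FPKM in HET (SD, n = 3) and 142.6 ± 13.9 FPKM in WT (SD, n = 5), a difference of -0.06 (SE 0.11, limma-trend adjusted p = 0.746). Each Snord116 copy was listed at 0. The locus that carries the name Snhg14, whose value also holds Snrpn and Snurf, stood at 115.8 FPKM or more in every library. That value is not shown to come from RNA that crosses the copies. The locus range of the copy Snord116l12 (59904755 to 59904848) covers the snoRNA alone.

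The proteins that bind, assemble and trim box C/D snoRNAs are encoded by 23 listed genes, all of which were tested. In KO against WT, 0 of the 4 core protein genes, 0 of 13 assembly and transport genes and 0 of 6 release and trimming genes were higher or lower by limma-trend at an adjusted p under 0.05. At an unadjusted p under 0.05, 0 of the 23 were higher and 2 were lower, Nop56 and the assembly factor gene Pih1d1. Over all 18217 tested loci, 4119 were higher and 2157 lower at that threshold. By limma-trend at an adjusted p under 0.05, 19% of all were higher and 5.61% were lower. Differences ran from -0.16 to 0.15 on the log2 scale, with a median of 0.032. With the authors' matrix, which moves the median of all loci by 0.205 in KO against WT, 12 of the 23 were higher. Fbl, for the methyltransferase fibrillarin, averaged 139.2 ± 10.9 FPKM in KO (SD, n = 6), 140.2 ± 7.92 FPKM in HET (SD, n = 3) and 135.9 ± 7.34 FPKM in WT (SD, n = 5). Nop56, itself host to Snord57, averaged 102.1 ± 5.73 FPKM in KO (SD, n = 6), 102.3 ± 1.85 FPKM in HET (SD, n = 3) and 114.6 ± 13.9 FPKM in WT (SD, n = 5). Its limma-trend adjusted p was 0.104 for a difference of -0.16 (SE 0.07). Nop58, host to Snord11, averaged 141.8 ± 19.3 FPKM in KO (SD, n = 6), 126.1 ± 0.622 FPKM in HET (SD, n = 3) and 131.9 ± 13.4 FPKM in WT (SD, n = 5), a difference of 0.10 (SE 0.08, limma-trend adjusted p = 0.449).

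Set beside the members, 38 of 44 box H/ACA and Cajal body loci were tested, of which 9 (23.7%) were higher and 0 were lower in KO against WT by limma-trend, with 13 higher and 0 lower at an unadjusted p under 0.05. Of 27 non-coding host loci, 19 were tested, and 4 (21.1%) were higher and 0 were lower, with 5 and 2 at an unadjusted p under 0.05. Among all 18217 tested loci, 19% were higher and 5.61% were lower by limma-trend, with 4119 and 2157 at an unadjusted p under 0.05. The differences of these shares from that background and from the box C/D loci were not tested.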

How the data were processed

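RNA of 14 libraries was read from tables in which the authors deposited 1 Cuffdiff FPKM value per locus and library. The authors also deposited a log2 matrix, blank where FPKM is 0, which served as an alternative input. Libraries were TruSeq Stranded mRNA, per the labels' protocols. Per the submitters' processing notes, TopHat2 2.1.0, Cuffdiff, Partek, bcl2fastq and FastQC 0.10.0 were used, in roles not stated, with mm10. The sources used here do not give gene models, strand setting or filters. The files hold no counts. Relative depth was read from the FPKM steps of loci under 0.3 FPKM, in log2 bins of 0.02. The precision of each value therefore rests on the number of libraries.

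A locus carries 1 value for all its names, and its coordinate range can also cover genes on the other strand, so overlapping, antisense and near-identical genes cannot be told apart. Groups were taken from the genotype labels. Loci with at least 0.5 FPKM in at least 3 libraries (18217) were fitted as log2(FPKM + 0.1) by limma-trend with robust moderation (limma 3.58.1, R 4.3.3), with 1 mean for each genotype and all 14 libraries in the fit. This scale understates changes of low loci. Benjamini-Hochberg adjustment covered all tested loci (threshold 0.05), and the fit was tested on simulated data. Zcchc8 was also compared by a two-sided exact permutation test (scipy 1.17.1; Python 3.11.15, pandas 2.3.3, numpy 2.4.6). Plots were made in matplotlib 3.10.9. Positions and sequences came from GENCODE M21 and promoter windows from RefSeq, both on GRCm38.

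The members, gene lists and tests were chosen with earlier results of these data known. Named loci were Zcchc8, members with a snoRNA name alone that passed the filter, shared loci called in any comparison, the 5 highest shared loci, those next to the filter, Fbl, Nop56, Nop58 and any called pathway gene. Of the loci so chosen, 3 are not reported here. Other loci, among them Snord23, Sf3b3, Ckap5, Tsr1, Snhg14, Pih1d1 and the neighbouring genes, were named after their values were seen. By the plan, members under the filter were to be named only by their values. The fitted differences given for Snord13 and Snord104 depart from this. Alternatives were pseudocounts of 0.5 and 1, no filter, a stricter filter of 1 FPKM in 5 libraries, other scalings, the authors' matrix, replicate number as a block, fits of the 2 compared groups alone, library weights, loci of at least 300 bases and leaving out each library.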

Additional observations from a re-analysis of the deposited data

Results flagged for a closer look

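In 4 of 24 groups examined, 1 library stood far from the others of its group, where chance gives about 1 in 20 for groups without ties. In 3 of the 4 the other libraries were all listed at 0, so that any value above 0 stands apart and this rate does not apply. Snord23 had 366.8 FPKM in WT1 and was listed at 0 in the other 4 WT libraries. Snord15a had 4.55 FPKM in WT5 and was listed at 0 in the other 4. The locus called Snord13 had 0.1466 FPKM in WT1 and was listed at 0 in the other 4. The Gnl3 and Snord69 locus had 42.51 FPKM in WT5, while the other 4 WT libraries lay between 34.8 and 36.4 FPKM.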

How the results depend on the processing

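The Snord17 locus and Zcchc8 kept their direction and call in KO against WT under all 25 alternatives, where single libraries left out gave 0.95 to 1.12 for Snord17 on the log2 scale. The Snord93 call was lost with no filter (limma-trend adjusted p = 0.0716) and with the replicate block (0.0694), and that of Snord118 with quantile normalization (0.0561) and with fits of 2 groups alone (0.0538). The causes were not tested.

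Of loci with a snoRNA name alone, called higher in 1 case, the number was 2 with no filter and 0 with quantile normalization, fits of 2 groups or loci of at least 300 bases, where Snord118 was too short to be tested and Snord15a remained. Shared loci called higher in KO against WT, 3 in all, numbered 7 with the authors' matrix and 5 with library weights. The 1 shared locus called lower became 0 with no filter, the stricter filter, quantile normalization, the authors' matrix, the replicate block, fits of 2 groups or library weights. Pathway genes called higher, 0 in all, numbered 12 with the authors' matrix. In KO against HET, members called lower, 0 in all, numbered 1 with library weights.

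Over all loci, KO against WT gave 1844 higher with the stricter filter (6969 with the authors' matrix), and 3801 lower with quantile normalization, 269 with the authors' matrix, 645 with the replicate block and 1632 with library weights. KO against HET gave 1772 higher with the stricter filter and 2092 with quantile normalization. Its lower calls were 3256 with quantile normalization, 217 with the authors' matrix, 409 with the replicate block, 451 with fits of 2 groups and 1842 with library weights. HET against WT, with 1 locus higher and 0 lower, gave 0 higher with pseudocounts of 0.5 or 1, the stricter filter, the authors' matrix, the replicate block or loci of at least 300 bases. It gave 2 with no filter, quantile normalization, fits of 2 groups or library weights, and 1 lower with the authors' matrix or fits of 2 groups.

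Leaving out single libraries gave 3163 to 3490 higher and 667 to 1225 lower loci in KO against WT (667 without KO4, 672 without WT4), and 2837 to 3341 higher and 265 to 918 lower in KO against HET (511 without KO4, 265, 350 and 527 without HET3, HET4 and HET5). In HET against WT it gave 0 to 2 higher and 0 to 1 lower. Loci with a snoRNA name alone gave 0 to 1 higher. Shared loci gave 2 to 4 higher and 0 to 1 lower. Pathway genes gave 0 to 1 higher (1 without KO5) and 0 to 1 lower (1 without KO5 or WT2). Members in KO against HET gave 2 to 5 higher and 0 to 1 lower (1 without KO1). Where 2 HET libraries remained, all groups shared 1 spread.

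Signs turned at Snord15a (-0.32 with quantile normalization, -0.10 with the replicate block), Snord89 (0.07 with the authors' matrix), and Rpl23a (-0.0013 with a common median), with limma-trend adjusted p of 0.506 or above in each. Leaving out single libraries gave -0.02 to 0.07 for Rpl13a, -0.01 to 0.05 for Rpl23a and -0.09 to 0.0023 for Hspa8.

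Same-numbered libraries did not deviate together (correlations from -0.11 to 0.10 over 11 pairs, with 4 of 13 libraries closest to their own number). Other pairs gave -0.12 to 0.11. With so few libraries, these values cannot exclude that the numbers pair samples, and the replicate block stands only as an alternative. Total depth is unknown, so no upper limit can be given for a value listed at 0.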
